A study of Mus musculus with 6 samples.

Results

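Fatty acid oxidation was followed here through 31 mouse genes: 16 of enzymes and electron carriers of mitochondria, 12 of enzymes, transporters and a membrane protein of peroxisomes, and 3 (Acsl1, Crat and Ech1) whose products are found in both organelles. The genes were taken by name, as the non-control probes of the array whose gene name is on the list, which gave 43 of 41174 probes and 31 of 28478 named genes. All 31 genes were well above background on each of the 6 arrays and all 31 were among the 19598 genes tested. The samples were both kidneys of 3 CD-1 mice, an outbred stock, numbered 495, 485 and 512 in the labels. The ligated group held the left kidneys, whose ureter had been tied completely, and the contralateral group held the untied right kidneys of the same 3 animals, which the study used as internal control. No transgene, drug or genotype is named in the labels, and no sham-operated or untouched animal was analysed here, so the contralateral kidney is the only reference. The labels give kidney as the tissue and primary cells as the cell type, and neither the age of the mice nor the time between ligation and sampling is given in the sources used here. The tissue was checked on its markers: Kap, Miox and Lrp2 of the proximal tubule and Umod of the thick ascending limb were well above background on every array.

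Fatty acids are the main fuel of the proximal tubule, the nephron segment that reabsorbs most of the filtrate. Long-chain acyl-CoA is carried into mitochondria as carnitine esters and is shortened there in repeated rounds of dehydrogenation, hydration, a further dehydrogenation and thiolysis, with electrons passed through the electron transfer flavoprotein to the respiratory chain. Peroxisomes run a parallel pathway for very long, branched and dicarboxylic acids, which starts with acyl-CoA oxidases that make hydrogen peroxide and ends with medium-chain products that leave as carnitine esters. Many genes of both pathways are known targets of the nuclear receptor PPARα.

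Signals are given as relative signal, the background-corrected spot intensity divided by the 75th percentile of its array, always in the order mouse 495, mouse 485, mouse 512. Changes are log2 differences of ligated minus contralateral kidney within the mouse, from a limma fit over all genes with the mouse as a block, given ± SE over 3 pairs, and a gene counted as called at an adjusted p under 0.05. The 75th percentile itself was 671 to 1106 intensity units in contralateral and 1068 to 1432 in ligated kidneys, and 65.3% to 74.2% of probes were well above background. The number of arrays limits the precision. The contralateral kidney of mouse 512 stood apart from the other contralateral kidneys before any test: in it the 19 proximal tubule markers tested lay at a median of -2.03 on the log2 scale against the mean of the other contralateral kidneys, the 10 fibroblast markers at 1.21 and the 10 macrophage markers at 1.94.

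Every one of the 31 genes had a lower signal in the ligated than in the contralateral kidney of all 3 mice, a pattern that 37.9% of all genes tested shared. Of the 31, 24 fell past the threshold, 0 rose and 7 were not called, whereas 30.7% of all genes were called in either direction, 14.7% as lower and 16.0% as higher. The calls comprised 12 of 16 mitochondrial genes, 9 of 12 peroxisomal genes and all 3 genes of both compartments, and 21 of the 24 were at least 2-fold lower, against 8.97% of all genes. The median change was -1.51 for the 31 genes and -0.01 for all genes tested. Ordered among all genes by fitted change, 16 of the 31 lay within the lowest 5 percent and 25 within the lowest 10 percent. In 29 genes the 3 ligated kidneys lay below the 3 contralateral kidneys without overlap, which held for 28.8% of all genes. The exceptions were Acox2 and Acox3. In bulk RNA such as this, fewer cells of a type and less RNA per cell cannot be told apart.

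The count of calls rested on mice 495 and 485. Without mouse 495 or without mouse 485, 0 of the 31 genes and 0 of all 19598 passed, although 22 and 20 of the 31 had an unadjusted p under 0.05, and the median changes were -1.33 and -1.34. Without mouse 512 all 31 were called lower, as they were in an unpaired fit without the contralateral kidney of mouse 512 alone. The share of all genes called lower was 28.9% and 30.0% in these fits. Scaling mattered too: centring on spike-in spots gave 10 calls and centring on the array median 30, all of them lower, and dropping the filter on dim probes gave 5, when 902 of 28468 genes (3.17%) were called lower. With spike-in centring 653 genes of the whole array were called lower and 2449 higher, with the array median 5938 and 2561, with normexp background correction 2787 and 1992, and with the 75th percentile 2884 and 3135. The median of all genes stood at 0.31, -0.32, -0.18 and -0.01 in these 4 settings. Relative to it, the median of the 31 genes lay at -1.50 with spike-in centring, the array median and the 75th percentile. These scalings each subtract a single value per array, so this distance could not differ among them. It was -1.24 with normexp and -1.01 with quantile normalization, and all 31 changes were negative in every one of these settings.

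**Figure D1:**
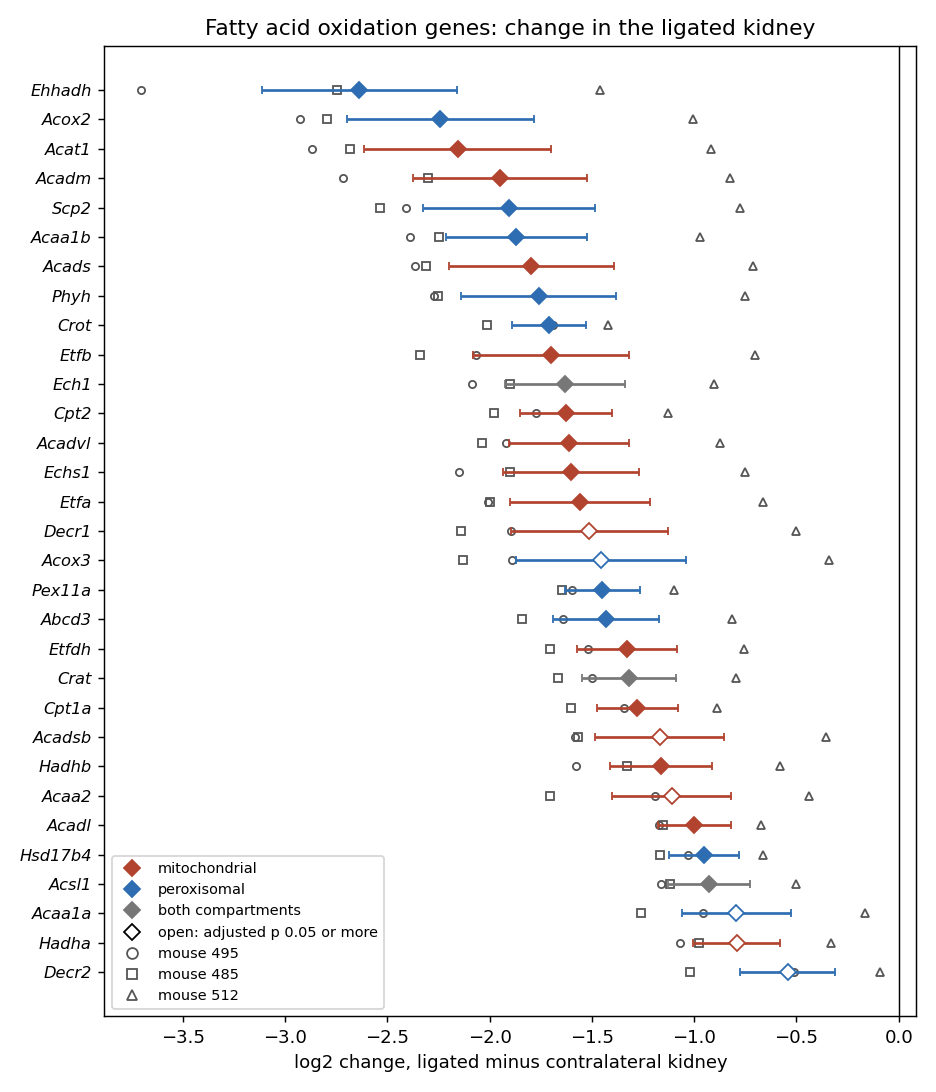
Log2 change of each of the 31 genes, ligated minus contralateral kidney, on the horizontal axis, with diamonds for the fit over 3 mice, bars for ± 1 SE and small open symbols for each mouse. All points lie left of 0, from Ehhadh at -2.64 to Decr2 at -0.54, and the triangle of mouse 512 lies farthest right in every row.

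Activation and carnitine shuttling lead fatty acids into the mitochondrion. Acsl1, a long-chain acyl-CoA synthetase, had relative signals of 13.4, 11.2 and 8.27 in contralateral and 5.98, 5.18 and 5.84 in ligated kidneys, a change of -0.93 ± 0.20 (adjusted p = 0.0406). Cpt1a encodes the outer-membrane carnitine palmitoyltransferase that sets the rate of entry. Its signals were 22.4, 26.6 and 15.8 against 8.84, 8.76 and 8.51. The ligated kidneys were thus nearly equal while the contralateral ones differed, and the change was -1.28 ± 0.20 (adjusted p = 0.0290), or 2.42-fold lower. Cpt2, the inner-membrane partner that returns the acyl group to CoA, went from 34.5, 44.4 and 19.3 to 10.1, 11.3 and 8.85, 3.09-fold lower (-1.63 ± 0.23, adjusted p = 0.0265). Crat, the carnitine acetyltransferase that handles short acyl groups, changed by -1.32 ± 0.23 (adjusted p = 0.0318), with every ligated kidney between 5.70 and 7.18 and every contralateral kidney between 9.90 and 20.7.

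Of the 5 acyl-CoA dehydrogenases, which open each round of oxidation and differ in the chain they take, 4 were called lower. Acadm, the medium-chain enzyme, showed signals of 104, 97.2 and 25.7 in contralateral kidneys and 15.9, 19.7 and 14.5 in ligated kidneys. The contralateral kidney of mouse 512 was nearer to the ligated kidneys than to the other contralateral ones, and the fitted change was -1.95 ± 0.42 (adjusted p = 0.0408), 3.86-fold lower. Acads, the short-chain enzyme, went from 7.90, 10.96 and 3.11 to 1.54, 2.21 and 1.90 (-1.80 ± 0.40, adjusted p = 0.0427). Acadvl, the very-long-chain enzyme of the inner membrane, read 46.7, 50.5 and 23.4 against 12.3, 12.3 and 12.8 (-1.61 ± 0.29, adjusted p = 0.0327). For Acadl, the long-chain enzyme, the fall was smaller, from 6.59, 6.47 and 4.48 to 2.92, 2.91 and 2.81 (-0.9996 ± 0.18, adjusted p = 0.0322). Acadsb, which acts on short branched chains from isoleucine, was not called (-1.17 ± 0.32, adjusted p = 0.0579): mice 495 and 485 gave -1.58 and -1.57 and mouse 512 gave -0.35.

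Electrons from these dehydrogenases pass to the electron transfer flavoprotein and its oxidoreductase, and all 3 of their genes were lower. Etfb, the β subunit, had contralateral signals of 142, 143 and 51.2 and ligated signals of 34.0, 28.2 and 31.5 (-1.70 ± 0.38, adjusted p = 0.0422). Etfa, the α subunit, went from 28.5, 32.0 and 11.05 to 7.07, 7.998 and 6.97 (-1.56 ± 0.34, adjusted p = 0.0412), so the α and β subunits were 2.94-fold and 3.25-fold lower. The probe of Etfb also lists the RefSeq accession of another gene, which it cannot tell apart from Etfb. Etfdh, the membrane enzyme that hands the electrons to ubiquinone, went from 21.6, 26.7 and 11.6 to 7.56, 8.18 and 6.89 (-1.33 ± 0.24, adjusted p = 0.0332).

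In the later steps of the mitochondrial spiral, 3 of 5 genes were called. Echs1, the short-chain enoyl-CoA hydratase, read 42.5, 41.6 and 15.9 in contralateral and 9.56, 11.1 and 9.42 in ligated kidneys (-1.60 ± 0.33, adjusted p = 0.0380). Acat1, the acetoacetyl-CoA thiolase that works in ketone body and isoleucine breakdown, had the largest fall of the mitochondrial genes, from 38.3, 49.0 and 11.3 to 5.26, 7.63 and 5.96, 4.46-fold lower (-2.16 ± 0.46, adjusted p = 0.0390). Hadhb, the β subunit of the trifunctional protein with its long-chain thiolase, went from 20.7, 18.9 and 9.096 to 6.92, 7.54 and 6.09 (-1.16 ± 0.25, adjusted p = 0.0401). Hadha, the α subunit with the hydratase and dehydrogenase activities, was not called (-0.79 ± 0.21, adjusted p = 0.0566), with 1.95, 1.93 and 1.27 against 0.927, 0.978 and 1.01. Its probes disagreed: a second one, designed to another transcript sequence, read 0.0659, 0.0712 and 0.0787 in contralateral and 0.0813, 0.0976 and 0.0722 in ligated kidneys (0.21 ± 0.18, adjusted p = 0.391), and another was above background on 1 of 6 arrays. Acaa2, the mitochondrial 3-ketoacyl-CoA thiolase, missed the threshold (-1.11 ± 0.29, adjusted p = 0.0549).

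The auxiliary enzymes of unsaturated chains gave the same direction. Ech1, a dienoyl-CoA isomerase of both organelles, went from 30.9, 31.8 and 14.8 to 7.27, 8.51 and 7.93 (-1.63 ± 0.29, adjusted p = 0.0324). Decr1, the mitochondrial dienoyl-CoA reductase, was 2.85-fold lower and not called (-1.51 ± 0.38, adjusted p = 0.0516), with differences of -1.90, -2.14 and -0.50. Its other probe, dimmer but above background, gave -1.48 ± 0.26 and was called in a separate fit over probes (adjusted p = 0.0313). In that fit the brighter probe had an adjusted p of 0.0504. Decr2, the peroxisomal reductase, had the smallest change of the 31 genes. Its signals were 3.34, 3.43 and 2.37 against 2.34, 1.69 and 2.22, so the highest ligated kidney lay just below the lowest contralateral kidney, and the change of -0.54 ± 0.23 was not called (adjusted p = 0.136).

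Among the peroxisomal genes, the chain-shortening enzymes held the largest falls. Ehhadh, the bifunctional enoyl-CoA hydratase and dehydrogenase of straight chains, had signals of 23.2, 28.0 and 5.47 in contralateral and 1.78, 4.18 and 1.99 in ligated kidneys. Each contralateral kidney was above each ligated one, and the fit gave 6.22-fold lower (-2.64 ± 0.48, adjusted p = 0.0326). It was the only one of the 31 genes whose change exceeded the median of the proximal tubule markers, -2.25, but Acox2 at -2.24 lay almost at that median. Hsd17b4, the bifunctional enzyme of branched chains and bile acid intermediates, changed less, with signals of 25.7, 28.0 and 19.99 against 12.6, 12.5 and 12.6 (-0.95 ± 0.17, adjusted p = 0.0325). The acyl-CoA oxidases of branched chains were the genes whose groups overlapped. Acox2 read 6.47, 7.24 and 0.762 in contralateral and 0.851, 1.04 and 0.380 in ligated kidneys, so that the contralateral kidney of mouse 512 was lower than the ligated kidneys of both other mice. The paired change was -2.24 ± 0.46 (adjusted p = 0.0371), and without the mouse block Acox2 was not called (adjusted p = 0.111). Acox3 read 18.9, 25.9 and 4.73 against 5.09, 5.90 and 3.74 and was not called (-1.45 ± 0.42, adjusted p = 0.0640).

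The 60-base probe of Acox2 spans 4390 bases of the genome and so lies across an intron (chr14:7019530-7023919, mm8), and it is printed, as in the array files, because the overlap of the groups rests on this single probe.
Acox2 probe: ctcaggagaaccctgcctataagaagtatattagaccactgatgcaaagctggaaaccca

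Thiolases close the peroxisomal round. Acaa1b, one of 2 near-identical 3-ketoacyl-CoA thiolases, went from 16.0, 15.3 and 5.22 to 3.05, 3.22 and 2.66 (-1.87 ± 0.34, adjusted p = 0.0332). Acaa1a, the other, was not called on its brightest probe, with 81.2, 85.6 and 43.2 against 41.9, 35.7 and 38.5 (-0.79 ± 0.27, adjusted p = 0.0864). Another probe of Acaa1a fell further, and its sequence is given because the call depends on which probe is read. It lies over an intron (chr9:119195223-119196443, mm8), lists the accession of Acaa1a alone and gave -1.25 ± 0.29 (adjusted p = 0.0433).
Acaa1a probe: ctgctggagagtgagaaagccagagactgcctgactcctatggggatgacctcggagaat
Scp2, which encodes the thiolase of branched chains and a lipid carrier from the same locus, went from 54.4, 67.4 and 15.9 to 10.2, 11.6 and 9.29 (-1.91 ± 0.42, adjusted p = 0.0413).

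Phyh, the phytanoyl-CoA hydroxylase that starts α-oxidation, went from 86.8, 104 and 23.3 to 18.0, 21.8 and 13.8 (-1.76 ± 0.38, adjusted p = 0.0400), and its call was lost without the mouse block (adjusted p = 0.0669). Crot, the carnitine octanoyltransferase that exports shortened chains, read 19.4, 27.0 and 14.1 against 6.00, 6.67 and 5.27, which is -1.69, -2.01 and -1.42 in the 3 mice (-1.71 ± 0.18, adjusted p = 0.0223, the smallest of the 31). Abcd3, the half-transporter for long-chain substrates in the peroxisomal membrane, fell from 48.5, 66.0 and 27.6 to 15.6, 18.4 and 15.7 (-1.43 ± 0.26, adjusted p = 0.0326). Pex11a, a membrane protein of peroxisome division, read 20.7, 24.7 and 12.6 against 6.85, 7.89 and 5.89 (-1.45 ± 0.18, adjusted p = 0.0242). Over all probes of the 31 genes, 41 of the 42 that passed the filter had a lower fitted signal in the ligated kidneys, 34 were called lower and 0 higher. No share over all probes of the array is at hand, and 14.7% of all genes tested were called lower. As 8 of the 31 genes have several probes, which read the same RNA, the probe count adds no independent support to the count of genes.

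**Figure D2:**
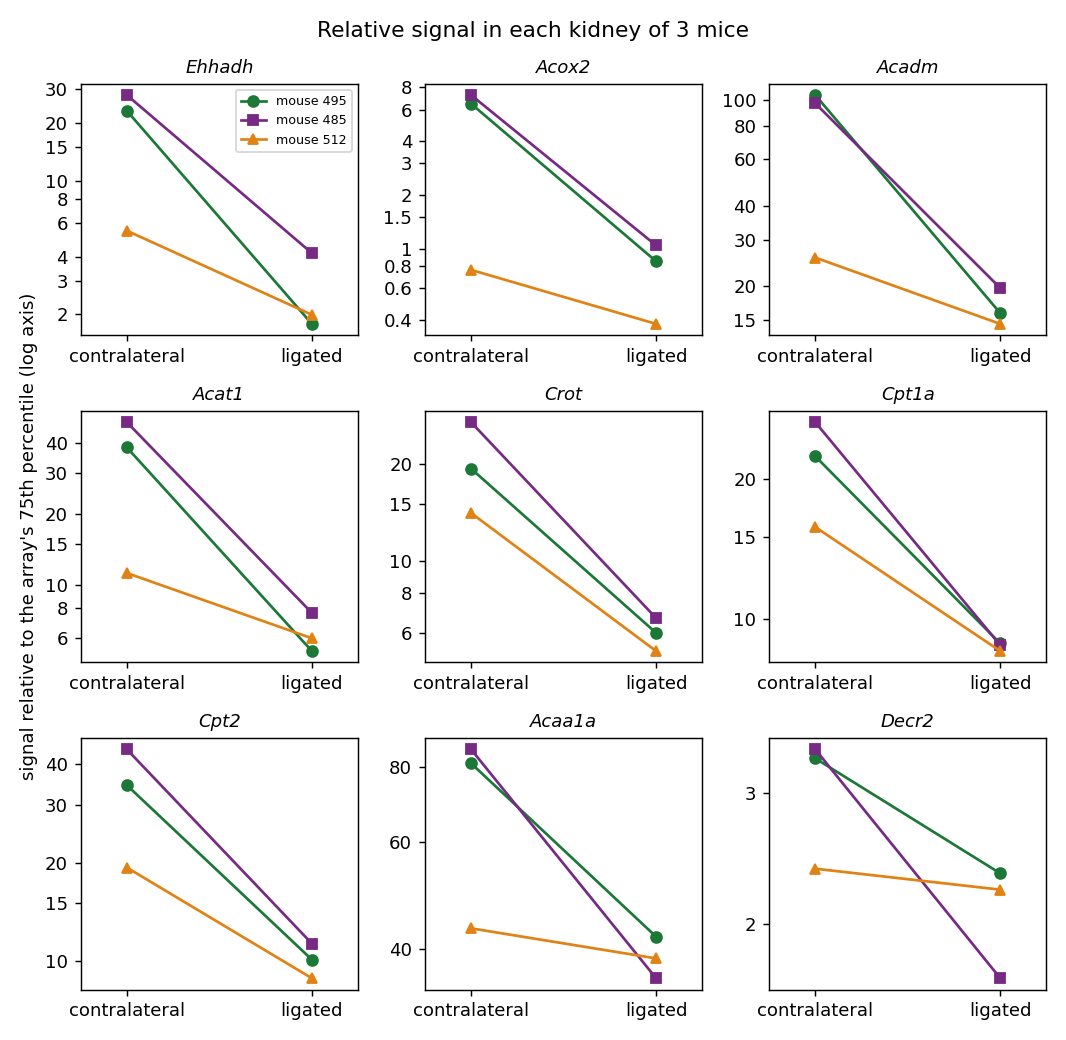
Relative signal (log axis) in the contralateral and ligated kidney of each mouse, joined by a line per mouse, for 9 of the 31 genes, each panel with its own axis. All lines fall, and the line of mouse 512 starts lowest in every panel, at 5.47 for Ehhadh and 0.762 for Acox2.

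The medians of the mitochondrial and the peroxisomal genes lay close together. The median change was -1.53 for the 16 mitochondrial and -1.58 for the 12 peroxisomal genes, a difference of 0.05, and -1.32 for the 3 genes of both compartments. Within mice 495, 485 and 512 the mitochondrial median was -1.84, -1.94 and -0.71 and the peroxisomal median -1.79, -2.07 and -0.80, which gives differences of -0.04, 0.13 and 0.09. The sign of the difference was not the same in the 3 mice, and it turned to -0.08 when the 3 genes of both compartments were counted as peroxisomal or when Acadsb, Acox2, Phyh and Acat1 were left out. The SD of the 3 differences was 0.09, larger than the difference of the medians, and no test of it was made. The peroxisomal genes reached over a wider span of changes, from Ehhadh at -2.64 to Decr2 at -0.54, than the mitochondrial genes, from Acat1 at -2.16 to Hadha at -0.79.

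Mouse 512 had the smallest fall of the 3 mice for all 31 genes, whereas 27.8% of all genes were lower in all 3 mice with the least fall in mouse 512. The medians over the 31 genes were -1.78 in mouse 495, -1.90 in mouse 485 and -0.75 in mouse 512. Spike-in spots stood above the 75th percentile by 3.62, 3.56 and 3.10 log2 units in contralateral kidneys. In ligated kidneys they stood above it by 3.02, 2.78 and 3.52. Centring on them makes the falls of mice 495 and 485 smaller and that of mouse 512 larger. The smallest fall in mouse 512 thus depends on the scaling, and values per mouse with spike-in centring were not worked out. In the 75th-percentile scaling, the contralateral kidney of mouse 512 was below both other contralateral kidneys for all 31 genes, which held for 44.2% of all genes tested. Its ligated kidney was the lowest of all 6 kidneys for 17 of the 31 genes, a count with no share over all genes at hand. Spike-in centring brings that contralateral kidney closer to the other contralateral ones and moves the ligated kidney of mouse 512 lower against the other ligated ones. Set against the mean of the contralateral kidneys of mice 495 and 485, the contralateral kidney of mouse 512 lay at a median of -1.08 over the 31 genes, its ligated kidney at -1.97 and the ligated kidneys of the other mice at -1.88. Per gene, the shift of that contralateral kidney was 37.5% to 111% of the mean change of the other mice's ligated kidneys (median 67.0%). The lowest share belonged to Crot and the highest shares to Acox2 and Acox3, the only ones above 100%. Cpt1a and Hsd17b4 were also at the low end, with 42.8% and 38.7%.

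**Figure D3:**
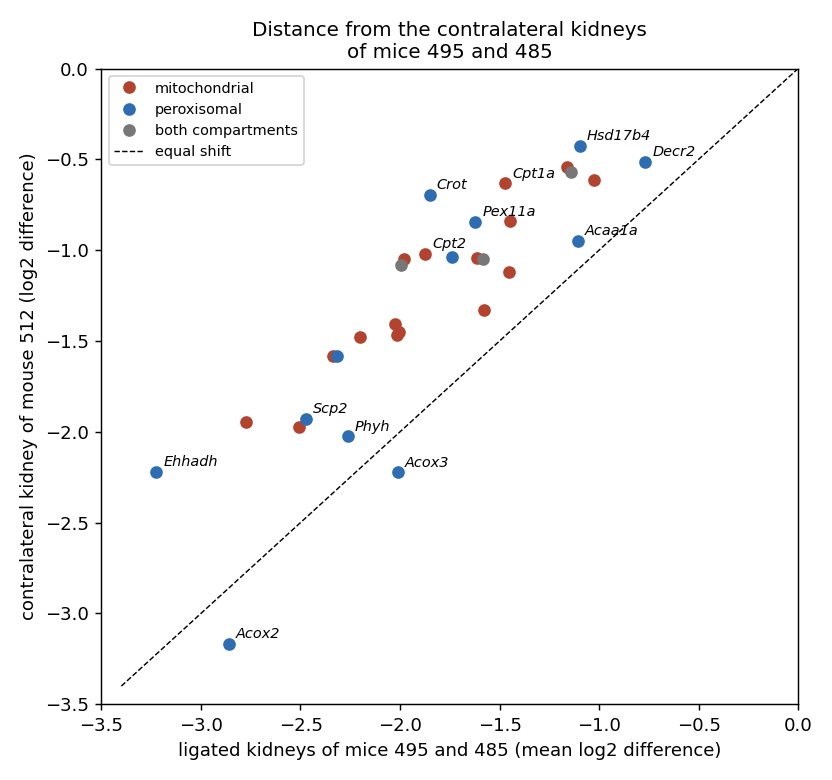
Each point is 1 of the 31 genes: on the horizontal axis the mean log2 difference of the ligated kidneys of mice 495 and 485, on the vertical axis the log2 difference of the contralateral kidney of mouse 512, both from the mean contralateral kidney of mice 495 and 485, which the axes therefore share. All points lie below 0 on both axes, and Acox2 and Acox3 alone lie below the dashed line of equal shift.

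With the 75th-percentile scaling, the ligated kidneys differed less among mice than the contralateral kidneys. Ranges with spike-in centring were not worked out. The median range over the 3 mice was 1.20 log2 units in contralateral and 0.28 in ligated kidneys, and the range was narrower in the ligated group for 31 of 31 genes, against 75.4% of all genes tested. With mice 495 and 485 alone the median ranges were 0.16 and 0.20. Then 13 of 31 genes (41.9%) were narrower in the ligated group, against 54.8% of all genes. The difference in range was thus seen only with mouse 512 included. Each range uses the kidneys of its own group alone. With mouse 512 added, the contralateral median range went from 0.16 to 1.20 and the ligated one from 0.20 to 0.28. In this scaling the wider range thus came with the contralateral kidney of mouse 512. Slide cannot be told apart from mouse here, as slide 2 held both kidneys of mouse 512 and slide 1 those of the other mice.

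Promoter sequences from 250 bases before to 50 after the start, from RefSeq (GRCm38.p6), were at hand for 26 of the 31 genes. The PPARα element is a direct repeat of AGGTCA with 1 base between the copies, and a match with up to 2 mismatches on either strand was found in 3 of the 26 (11.5%), Acox2, Echs1 and Etfa, against 4.40% of all 27025 genes with a promoter. With up to 1 mismatch there were 0 of 26 (0.644% of all genes). The single half-site AGGTCA, which the repeat contains, was present in 6 of 26 (23.1%, against 18.1%) and TCAAGGTCA, the extended half-site of estrogen-related receptors, in 0 (0.466%). The palindrome of the nuclear respiratory factor Nrf1, GCGCA followed by its reverse complement TGCGC, was present in 1 of 26 (3.85%, against 1.07%), Etfdh. These are counts of letters in a short window and show no binding. The stretches of 3 called genes are printed in the direction of transcription, all from the minus strand, with the matched bases in capitals: Echs1 (chr7:140116468-140116528, repeat with 2 mismatches), Etfa (chr9:55512284-55512344, repeat with 2 mismatches on the opposite strand) and Etfdh (chr3:79628862-79628919, exact palindrome).
Echs1: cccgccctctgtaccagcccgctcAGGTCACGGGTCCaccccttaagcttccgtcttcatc
Etfa: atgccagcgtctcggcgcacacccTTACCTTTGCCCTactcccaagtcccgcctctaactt
Etfdh: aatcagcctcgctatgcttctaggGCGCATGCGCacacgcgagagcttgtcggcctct

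Around the 31 genes, 93 further genes of the pathway were listed by role, of which 85 were tested, 48 were called lower and 2 higher (median -1.03). Of 15 genes of fatty acid uptake, activation and carnitine handling, 8 were lower and 2 higher (median -0.98). Cd36, a fatty acid translocase, read 18.5, 25.1 and 9.21 against 2.39, 4.45 and 1.93 (-2.57 ± 0.20, adjusted p = 0.0221), and Slc27a2, a fatty acid transport protein with acyl-CoA synthetase activity, changed by -2.15 ± 0.32 (adjusted p = 0.0277). Cpt1c, the brain form of the carnitine palmitoyltransferase, was higher, from 0.0524, 0.0189 and 0.110 to 0.257, 0.296 and 0.249 (2.48 ± 0.59, adjusted p = 0.0464), as was Fabp4, a fatty acid binding protein of adipocytes and macrophages (1.52 ± 0.19, adjusted p = 0.0241). Fabp4 is named as the other of these 2 rises, after its value was seen.

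Further enzymes of the same organelles were also lower. Among 14 other mitochondrial enzymes 11 fell and 0 rose (median -1.53), led by Gcdh (-2.20 ± 0.49) and Ivd (-2.15 ± 0.49), dehydrogenases of lysine and leucine breakdown, and Acad10 (-1.91 ± 0.22). Of 14 other peroxisomal enzymes 7 fell and 0 rose (median -0.98). Cat, the catalase that removes the hydrogen peroxide of the oxidases, changed by -1.99 ± 0.21 and Nudt19, a CoA diphosphatase, by -1.97 ± 0.39. Peroxins, which build the organelle and import its proteins, had a median of -0.88: 8 of 15 were lower and 0 higher, with the largest called changes in Pex10 (-1.33 ± 0.24), Pex7 (-1.22 ± 0.22), the receptor of the type 2 import signal, and Pex14 (-1.21 ± 0.22) of the docking complex.

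Most ketone body genes and nuclear regulators changed in the direction of the oxidation genes. The fitted change was negative in 4 of 5 ketone body genes and in 10 of 13 regulators, and positive in the others. In all 3 mice, 4 of the 5 and 9 of the 13 were lower. Oxct1 (-1.90 ± 0.41), which activates acetoacetate for use as fuel, and Bdh2 (-1.55 ± 0.27) were among the 3 of 5 ketone genes called lower, with 0 called higher and a list median of -1.89. Of 13 nuclear regulators 7 were lower and 0 higher (median -0.77). Ppara, which encodes PPARα, went from 9.53, 10.3 and 2.75 to 1.41, 2.31 and 0.925, 4.47-fold lower (-2.16 ± 0.28, adjusted p = 0.0243). Ppargc1a, its coactivator PGC-1α, changed by -0.77 ± 0.17 (adjusted p = 0.0396), and Hnf4a and Lpin1 by -1.72 ± 0.19 and -1.67 ± 0.30. Of the 9 other PPARα target genes 4 were lower and 0 higher (median -0.83), with the largest called changes in the fatty acid ω-hydroxylases Cyp4a14 (-3.57 ± 0.71) and Cyp4a10 (-3.17 ± 0.30) and the thioesterase Acot3 (-2.94 ± 0.26). In that list the contralateral kidney of mouse 512 was above both other contralateral kidneys for 4 of 9 genes and below both for 3, while 39.4% of all genes were above both. It was above both for 0 of the 31 oxidation genes.

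**Figure D4:**
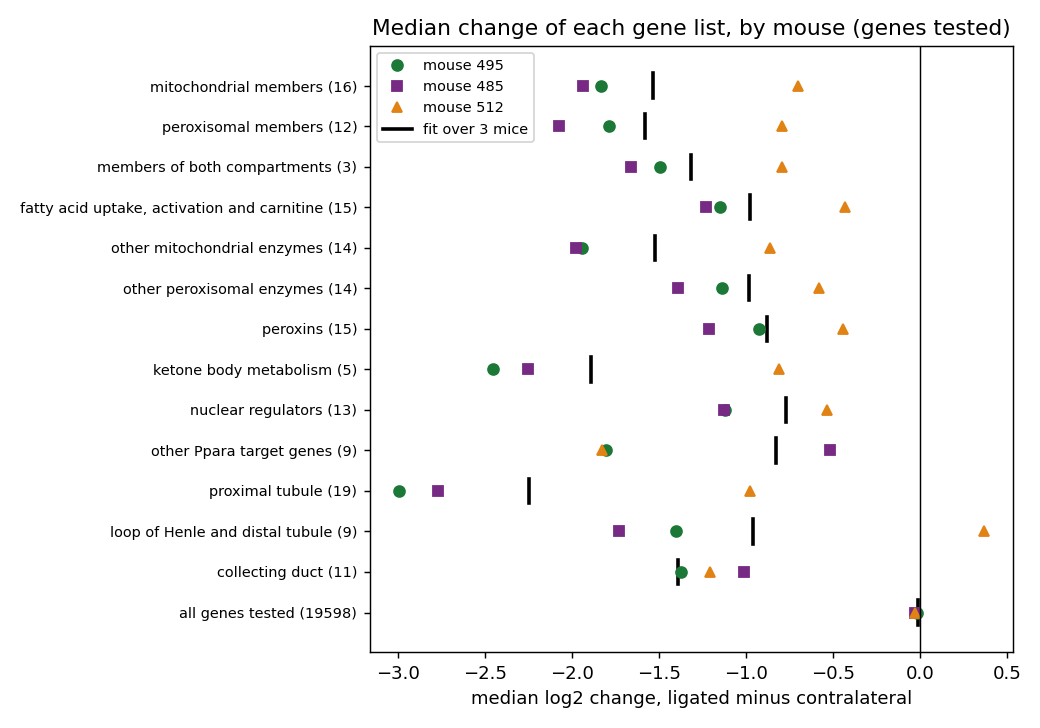
Median log2 change (horizontal axis, ligated minus contralateral) of each gene list, with the number of genes tested in brackets, for the fit over 3 mice (bar) and for each mouse (symbols). The mitochondrial and peroxisomal medians, -1.53 and -1.58, lie next to each other, left of the peroxins at -0.88 and right of the proximal tubule markers at -2.25.

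Marker lists of cell types moved in both directions. Of all genes tested, 14.7% were called lower and 16.0% higher. Proximal tubule markers were called lower in 12 of 19 and higher in 0 (median -2.25, or -2.99, -2.77 and -0.98 in the 3 mice), and their summed relative signal was 711 to 2468 in contralateral and 381 to 517 in ligated kidneys. Like the oxidation genes, they were below both other contralateral kidneys in that of mouse 512 for all 19. Of the loop and distal tubule markers 2 of 9 were called lower (summed signal 118 to 419 against 128 to 172), with a median of -0.96. That list did not fall in every animal: its median change was -1.41 for 495, -1.73 for 485 and 0.36 for 512. Of the collecting duct markers 7 of 11 were called lower (22.1 to 55.0 against 6.86 to 11.01), with a median of -1.39. Macrophage markers rose in 10 of 10, from a sum of 16.4 to 51.5 to one of 207 to 240, and fibroblast markers in 8 of 10, from 14.4 to 70.1 to 133 to 265. Fewer rose among lymphocyte markers (5 of 11, sums 0.832 to 1.35 and 3.45 to 10.3), endothelial markers (3 of 6, 9.68 to 15.5 and 14.3 to 18.4) and podocyte markers (2 of 5, 1.71 to 2.79 and 4.23 to 5.12), and 0 of 2 adipocyte markers (0.0978 to 0.434 and 0.0837 to 1.31). No marker was at 0, but the fibroblast marker Fap was above background on 0 of 3 contralateral arrays. The part of these shifts in the fall of the oxidation genes was not tested.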

How the data were processed

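Both kidneys of 3 mice were measured on 6 single-colour Agilent arrays (design 014868). Per the file headers, the deposited scanner tables hold a processed signal, a linear intensity from which Feature Extraction had already taken the background and spatial trend, and raw spot and background intensities. The headers give version 10.5.1.1 and the submitters' processing notes 9.1, which was not resolved. The deposited value table is a ratio, the processed signal over the array's median. Flags for background, saturation and outliers are deposited 0 or 1 codes (score) per the file headers. Probe positions are mm8.

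Of 43379 non-control spots per array, 43 to 79 flagged as outliers were removed and 0 were saturated. The log2 processed signal minus the array's 75th percentile was averaged per probe. Probes above background on all 3 arrays of a group were kept, and the brightest stood for its gene. Values of a gene's further probes came from a separate fit of the same kind over all kept probes, with p adjusted over those probes. Of 41174 probes, 24375 were named through RefSeq accessions, from a table of another build used for names alone, and 16799 kept the file's name. limma 3.58.1 in R 4.3.3 (lmFit, eBayes, two-sided, Benjamini-Hochberg over 19598 genes) used the mouse as a block (2 residual and 2.06 prior degrees of freedom), and was tested on simulated data. The labels give both kidneys of a number as 1 animal's, and deviations from group means correlated within the mice (r = 0.194, 0.481 and 0.271), more than between them (-0.304 to 0.018). Deviations sum to 0 in each group, so positive values within mice force lower ones between them, and this contrast is partly built in. The members and all lists were chosen with earlier results of these data known. All 31 genes were named, with the 3 called genes of largest change in each pathway list, plus Ppara and Ppargc1a, and some items under this rule are not reported here. Other scalings, filters, probe choices, blocks and left-out arrays were alternatives.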

Additional observations from a re-analysis of the deposited data

How the results depend on the processing

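Of the 17 other settings tried, the direction of all 31 oxidation genes held in 16. Other filters, blocks, an intensity trend, outlier spots kept and the deposited value table left the median change at -1.51, as in the main fit. Those settings bear on the calls and are no separate check of direction. With the second brightest probe 30 were negative and Hadha turned to 0.21. The count called lower (24) was 20 with quantile normalization, 24 with outlier spots kept or the deposited value table, 25 in the unpaired fit without the mouse block (22 of the 24 still called), 26 with the mean or second probe, 27 with normexp or probes above background on all 6 arrays, 28 with an intensity trend, 29 with slide as the block and 30 with the array median. Of all genes, 14.7% were called lower in the main fit. That share was 19.3% with probes above background on all 6 arrays and 18.4% with the trend. It was 20.3% with slide as the block, 30.3% with the array median and 13.5% to 14.7% in the rest of this list. The count of oxidation genes was 10 with spike-in centring (3.33% of all genes) and 5 without the filter (3.17%). Leaving out a mouse or the contralateral kidney of mouse 512 gave 0 to 31. The 48 calls of the pathway lists became 25, 16 and 0 to 67 in these settings. The mitochondrial minus peroxisomal difference ranged from 0.0047 to 0.16 without a mouse or that kidney, the highest without mouse 485, and was -0.080 with the genes of both compartments as peroxisomal and -0.083 without Acadsb, Acox2, Phyh and Acat1. The cause was not tested. Leaving out mouse 495 or 485 leaves 2 pairs, and a count of 0 there applies to all genes. Signal over background was lowest on the contralateral arrays (median 2.70 to 4.99 against 5.54 to 6.35 on ligated ones), which limits dim probes such as the dimmest of Hadha.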

Other observations

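Some genes that answer PPARα or fasting ran opposite to the oxidation genes in the contralateral kidney of mouse 512, and were picked out after their values were seen. Plin2, a lipid droplet coat protein, read 7.22, 4.97 and 54.1 (mouse 495, mouse 485, mouse 512) in contralateral and 23.6, 23.6 and 25.3 in ligated kidneys as relative signal. Angptl4, an inhibitor of lipoprotein lipase, read 4.63, 8.09 and 28.7 against 17.7, 19.6 and 18.3. Acot1, a cytosolic acyl-CoA thioesterase, read 14.4, 5.86 and 35.6 against 9.24, 5.77 and 10.05, and Pdk4, a kinase that restrains pyruvate oxidation, 0.474, 0.914 and 1.92 against 0.817, 1.27 and 0.716. For all 4 the contralateral kidney of mouse 512 held the highest of the 6 values, while for the 31 oxidation genes it was the lowest of the contralateral kidneys. None of the 4 was called (adjusted p = 0.166 for Acot1, 0.279 for Angptl4, 0.348 for Plin2 and 0.938 for Pdk4), and their differences within the pair of mouse 512 were negative, at -1.10 for Plin2 and -0.65 for Angptl4, where mice 495 and 485 gave 1.71 and 2.25, and 1.93 and 1.28. Pdk4 gave 0.79, 0.48 and -1.42 in mice 495, 485 and 512. Acot1 was negative in all 3 mice, at -0.64, -0.02 and -1.83 in the same order.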
